A study of Mus musculus with 22 samples.

Results

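The 10 entries described here were taken as bright rows of a mouse microRNA (miRNA) array. Several of them may not be true miRNAs. They are mmu-miR-6366, mmu-miR-5109, mmu-miR-3963, mmu-miR-6243, mmu-miR-5105, mmu-miR-5126, mmu-miR-2137, mmu-miR-5097, mmu-miR-5100 and mmu-miR-1224-5p. The mouse prefix is left out below. They were picked by name, for their high signal, out of 1247 miRNAs on the array, and all 10 passed the filter on dim probes that left 290 miRNAs for testing. Their brightness is therefore a description and not a result. The liver miRNA miR-122-5p serves as the yardstick throughout.

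The study exposed primary hepatocytes of C57Bl6 mice to cyclosporin A (CsA), an immunosuppressant that blocks calcineurin and can cause cholestasis, or to the solvent DMSO at 0.5%. Total RNA was hybridised to 22 one-colour arrays: 3 with 10 µM and 2 with 50 µM CsA for 24 h, 5 with DMSO for 24 h, 3 with 10 µM and 3 with 50 µM CsA for 48 h, and 6 with DMSO for 48 h. The arrays come from 3 numbered experiments, so that DMSO arrays of the same number share an experiment. All samples, controls included, are of the same strain and cell type, and a line of the labels that speaks of HepG2 cells at this step does not match the rest of them.

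A mature miRNA is a short RNA cut by Dicer from a hairpin and loaded into Argonaute, where bases 2 to 8, the seed, pair with target messages. Catalogues of miRNAs filled with small-RNA sequencing also took in fragments of transfer and ribosomal RNA, and entries of high number have since been questioned or withdrawn for this reason. The array kit labels the 3′ ends of small RNA and does not read whether a molecule came from a hairpin, so a probe reports any labelled RNA that matches it. In hepatocytes miR-122-5p is the dominant true miRNA, known for its part in cholesterol and lipid metabolism.

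The mature sequences below were found for 6 of the 10 entries in RefSeq (GRCm38.p6) and are shown 5′ to 3′ so that their base composition and the runs they share can be seen. No test relates these features to the signal. Capitals mark the seed.
miR-6366: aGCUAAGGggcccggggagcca
miR-3963: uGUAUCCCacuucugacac
miR-5126: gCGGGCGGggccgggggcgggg
miR-2137: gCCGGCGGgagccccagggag
miR-5100: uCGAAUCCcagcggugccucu
miR-1224-5p: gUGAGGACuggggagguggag
No entry shared its seed with another of the 229 tested miRNAs found in the table.

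miR-6366 lies at chr16:18165093-18165114 on the minus strand and miR-3963 at chr3:151023839-151023857 on the minus strand, and neither overlaps another RefSeq gene. The other 4 lie on the plus strand inside the bounds of a protein-coding gene: miR-5126 at chr1:84695890-84695911 in Dner, miR-2137 at chrX:72992113-72992133 in Zfp185, miR-5100 at chr11:60728698-60728718 in Mief2, and miR-1224-5p at chr16:20604452-20604472 in Vwa5b2. Only gene bounds were used, so exon and intron were not told apart. The strand given is that of the miRNA, and the strand of the gene is not given here or below. miR-1224 is known as a mirtron, a hairpin released by splicing rather than by Drosha.

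The 6 sequences were rich in G and C. Their median GC content was 69.7%, between 47.4% for miR-3963 and 100% for miR-5126, against a median of 54.5% over the 229 tested miRNAs and 45.5% over 12 miRNAs known for high levels in hepatocytes. A run of GGGG occurred in 3 of the 6 entries (50%), miR-6366, miR-5126 and miR-1224-5p, in 18.3% of the tested miRNAs and in 0 of the 12 hepatocyte miRNAs.

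The hairpin given for miR-5100 carries a stretch like the T arm of a transfer RNA, whose loop begins with UUCGA, and is shown for the 6 bases in capitals, which include the start of that loop.
Mir5100: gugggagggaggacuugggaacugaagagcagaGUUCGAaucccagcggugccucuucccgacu
This hairpin spans chr11:60728663-60728726 on the plus strand. The motif searched was GUUCGA, which occurred in 7 of 1005 RefSeq mouse miRNA hairpins (0.697%), and in 1 on the opposite strand. The mature miR-5100 covers 4 of the 6 bases. A match is a likeness of letters and does not show where the RNA on the array came from.

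On every array the 10 entries made up much of the signal. Summed over the brightest probe of each miRNA, they gave 57.3% ± 7.15 (SD, n = 22 arrays) of the total, between 45.7% and 68.5%. miR-122-5p gave 9.73% ± 2.17, between 6.71% and 13.9%, and ranked 3.

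miR-6366 was the brightest entry on average, with 17.5% ± 8.72 of the signal and values between 4.71% and 37.5%. miR-5109 followed with 16.1% ± 5.81, miR-3963 had 7.56% ± 2.62 (rank 4), and miR-6243 5.96% ± 4.31 (rank 5). The means of miR-6366 and miR-5109 differed by less than their spread between arrays. So did those of miR-122-5p and miR-3963, and those of miR-3963 and miR-6243. The gap between miR-122-5p and miR-6243 was larger than the SD of miR-122-5p and smaller than that of miR-6243. miR-5109 stood above miR-122-5p by slightly more than its SD. The remaining members held smaller shares: miR-1224-5p 3.06%, miR-5126 2.27%, miR-2137 2.14%, miR-5105 1.65%, miR-5100 0.844% and miR-5097 0.188%. Ranks ran down to 11 for miR-5105, 18 for miR-5100 and 44 for miR-5097, so the last of these is not among the brightest rows. The other miRNAs among the 10 brightest were miR-21a-5p (5.38%), a broadly expressed miRNA raised in many stressed tissues, and miR-22-3p (1.68%).

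**Figure D1:**
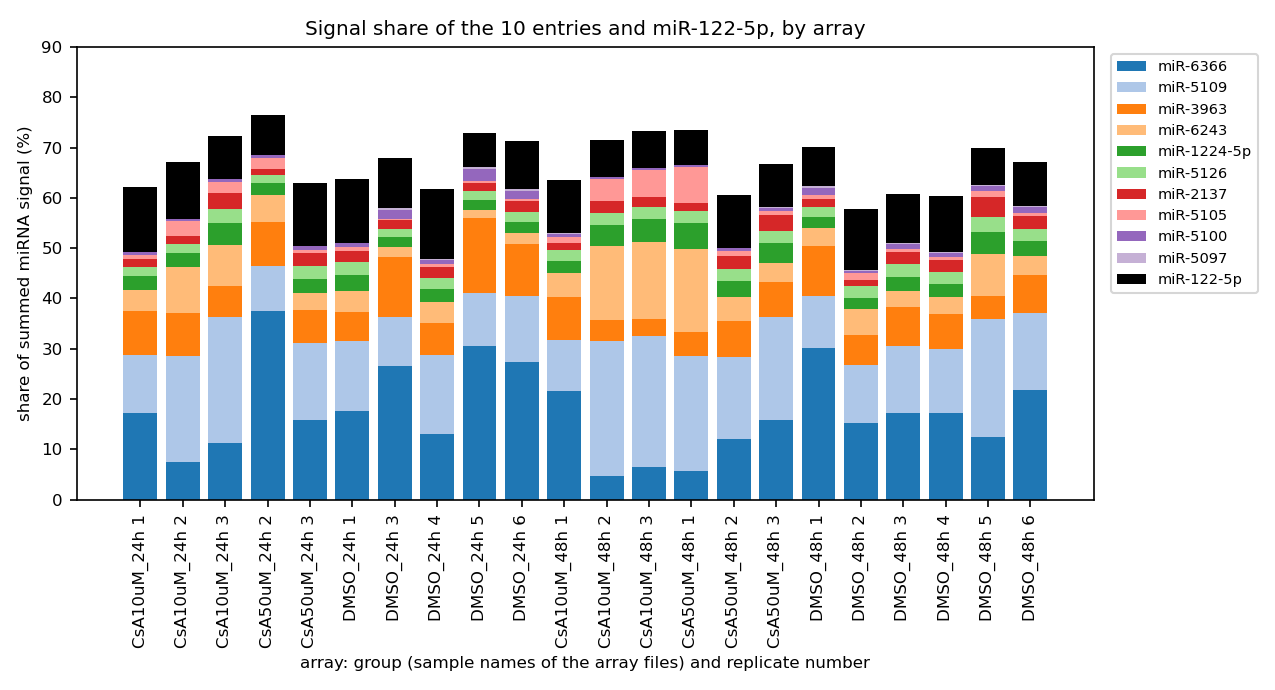
Stacked bars give the percent of each array's summed miRNA signal (y axis) held by the 10 entries (colours) and by miR-122-5p (black), for the 22 arrays in groups named by the array files (x axis). The 10 entries hold between 45.7% and 68.5%, and the blue share of miR-6366 varies between 4.71% and 37.5%.

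The makeup of that share differed between arrays more than its sum. In CsA-exposed cells at 48 h miR-6366 held 11.1% ± 6.71 (n = 6), against 19.0% ± 6.26 (n = 6) in DMSO cells. miR-5109 held 20.5% ± 6.32 in the same CsA cells, against 14.4% ± 4.73 in DMSO cells. The sum of all 10 was 59.6% ± 6.98 with CsA and 54.9% ± 7.17 with DMSO, a gap smaller than either SD. Shares are bound to sum to the whole, so a rise of a bright entry lowers the others.

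All levels from here on are scaled signals, the signal of the brightest probe over a scale factor of its array, which is the 75th percentile of the 281 probes well above background throughout. On this scale miR-5105 ran between 1.65 and 43.9 over the 22 arrays, a 26.6-fold range. The range was 12.9-fold for miR-5097, 10.3-fold for miR-6243, 9.01-fold for miR-6366, 8.60-fold for miR-5100, and 2.39-fold for miR-5126. For miR-122-5p it was 1.52-fold.

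Much of this range lay between arrays of the same treatment and time, with the CsA doses pooled. A difference between doses therefore counts as spread here, and spreads within dose groups are given further below. Within the groups of treatment and time, the SD of the log2 signal was 1.08 for miR-5105, the highest of the 290 tested miRNAs, 0.84 for miR-6243, 0.79 for miR-5097 and 0.75 for miR-6366. It was 0.59 for miR-5100, 0.58 for miR-5109, 0.51 for miR-2137, 0.50 for miR-1224-5p, 0.49 for miR-3963 and 0.34 for miR-5126. The median tested miRNA had 0.38 and miR-122-5p had 0.14, rank 266 of 290. Of the 10 entries, 9 lay above that median, and miR-5126 lay below it. This depends on the scaling: after quantile normalisation the median was 0.44 and miR-122-5p had 0.38, rank 187. Then 6 entries lay above the median, miR-5105 with 0.96 at rank 5, while miR-3963 (0.43), miR-2137 (0.40), miR-1224-5p (0.36) and miR-5126 (0.11) lay below it.

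The spread differed by treatment for some entries and not for others. Among the CsA arrays alone, with doses pooled, the SD was 1.44 for miR-5105 and 1.06 for miR-6243, against 0.53 and 0.55 among the DMSO arrays. miR-5100 had the opposite order, 0.37 among the CsA arrays and 0.74 among the DMSO arrays. The pooled CsA SDs include any difference between doses, and the dose names differ between sources, as described below. Within dose groups by the value table, the CsA SD of miR-6243 was 0.39, below its DMSO SD. Within those by the array files it was 1.11. For miR-5105 these values were 0.74 and 1.57, both above its DMSO SD. These SDs were not tested against each other.

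**Figure D2:**
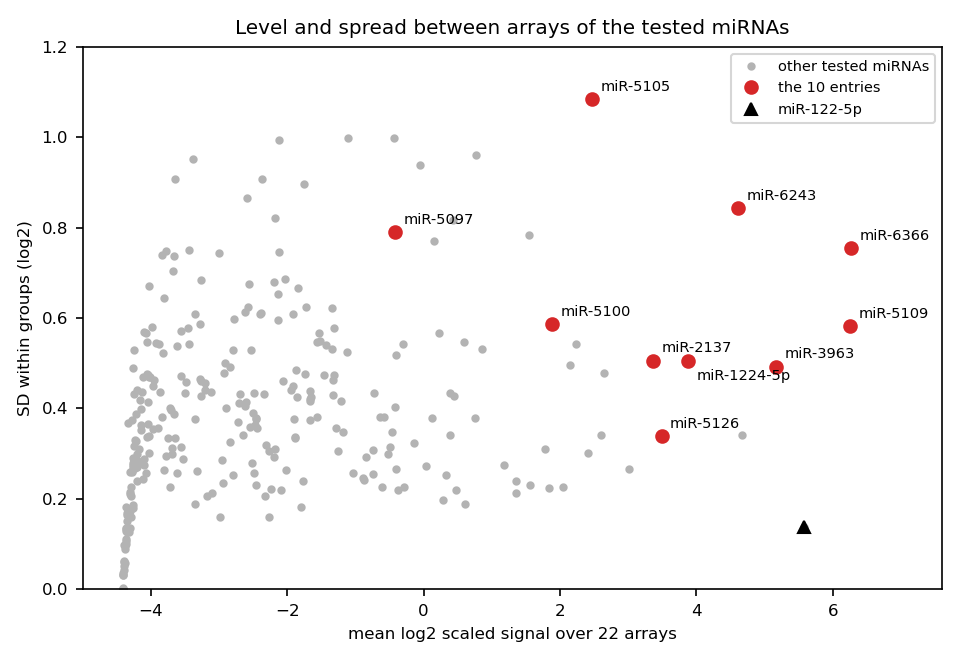
Each point is a tested miRNA, by its mean log2 scaled signal over 22 arrays (x axis) and its SD within groups (y axis, log2). The groups are those of treatment and time, with the CsA doses pooled. The 10 entries (red) lie between 0.34 and 1.08, and miR-122-5p (black triangle) lies at 0.14.

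Readings within an array agreed far better than arrays did. Each probe has 20 spots, and the median coefficient of variation between spots of the brightest probe was between 2.29% for miR-5100 and 5.66% for miR-1224-5p, and 7.65% for miR-122-5p. The CV of the scaled signal between arrays, before taking log2, was 123% for the brightest probe of miR-5105 and 24.8% for that of miR-5126. For miR-122-5p it was 13.8%, nearer to its CV between spots. The CVs between arrays run over all 22 arrays and so include differences of treatment and time. No spot was saturated, miR-6366 reaching a signal of 77367 and miR-5109 100036.

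Each entry is read by a pair of probes, which moved together. Over the 22 arrays their log2 signals had a Pearson correlation between 0.989 for miR-5126 and 0.998 for miR-3963, and 0.905 for miR-122-5p, whose own range is small. Over 125 probe pairs above background on all arrays the median was 0.991. Probe pairs share the array and much of their sequence. The brighter probe exceeded its partner 6.98-fold for miR-5100, 4.90-fold for miR-2137 and 1.05-fold for miR-5126, ratios that varied between arrays by an SD of at most 0.20 (log2). In the pooled CsA and DMSO time comparisons both probes gave a change of the same sign for all 10 entries, and the estimates of a pair differed by at most 0.27 (log2), for miR-5105.

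Over the 22 arrays the entries fell into sets that varied alike, given here as Pearson correlations of log2 scaled signal over arrays that share slides, groups and experiments. miR-6243 and miR-5105 varied almost as a single entry (r = 0.98), and each was also close to miR-370-3p (0.97 and 0.96). miR-5109 and miR-1224-5p were correlated at 0.94, and both followed miR-6243 (0.82 and 0.85). miR-6366, miR-3963, miR-5097 and miR-5100 were correlated with each other at 0.71 to 0.85, and miR-6366 with miR-6243 at -0.59. With miR-122-5p the values were between -0.26 and 0.05.

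With group means taken out the correlations were 0.97 for miR-6243 with miR-5105, 0.92 for miR-5109 with miR-1224-5p and 0.78 for miR-6366 with miR-3963. The negative correlation of miR-6366 with miR-6243 was then -0.42. With miR-122-5p the values were then -0.57 for miR-5100, -0.49 for miR-3963, and between -0.35 and 0.10 for the others.

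**Figure D3:**
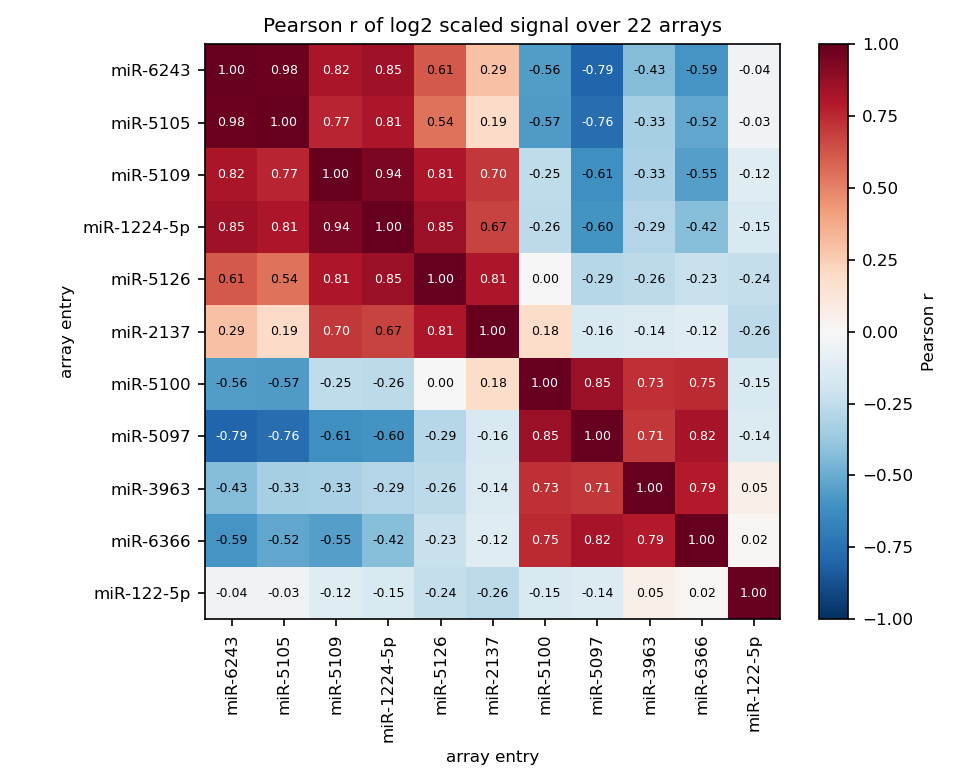
Colours and printed values give the Pearson correlation of log2 scaled signal over 22 arrays for each pair of entries named on the axes. A block of positive values holds miR-6243, miR-5105, miR-5109, miR-1224-5p, miR-5126 and miR-2137, a second block holds miR-5100, miR-5097, miR-3963 and miR-6366, and miR-122-5p has values between -0.26 and 0.05.

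The tested miRNAs most like each entry over the 22 arrays are named next. The closest to miR-3963 (r = 0.93), miR-6366 (0.85) and miR-5097 (0.86) was miR-3968, and the closest to miR-5100 was miR-6402 (0.93). The closest to miR-5126 was miR-149-3p (0.96), to miR-2137 miR-5131 (0.96), to miR-1224-5p miR-671-5p (0.96), and to miR-5109 miR-3095-3p (0.94). These 3 are shown for comparison with the entries they follow.
miR-3968: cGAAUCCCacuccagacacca
miR-149-3p: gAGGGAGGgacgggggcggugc
miR-5131: cGGCGCCCcacggagccccgagc
miR-3968 lies at chr11:115447969-115447989 (minus strand, within Trim80), miR-149-3p at chr1:92850421-92850442 (plus strand, within Gpc1) and miR-5131 at chr14:45657972-45657994 (minus strand, within Ddhd1).

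miR-5100 and miR-3968 share the run CGAAUCCCA, 9 bases that occur in 2 of 1679 mature sequences of the table, these 2. miR-3963 and miR-3968 share 8 bases, AUCCCACU, again found only in this pair. The longest run shared by miR-3963 and miR-5100 themselves is 6 bases. Shared runs and likeness of signal did not go together throughout: miR-6366 shares at most 3 bases with miR-3968, its closest miRNA, and miR-3968 is not among the 3 closest to miR-5100. Runs were compared only among the entries with a sequence, miR-3968 and miR-6402. Pairs that were not close were among them: miR-6366 and miR-2137 share 7 bases, with a correlation of -0.12. miR-149-3p and miR-5131 have GC contents of 81.8% and 87.0%, beside 100% for miR-5126 and 85.7% for miR-2137. Cross-hybridisation between such probes was not tested.

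Whole-array measures were set beside the entries. The correlation of an entry's log2 signal with the array's 75th percentile was between -0.11 and 0.40, and -0.42 for miR-122-5p. With the percent of spots flagged as outliers it was -0.51 for miR-6366 and between -0.35 and 0.18 for the others. The part of these measures in the results was not tested. Flagged spots made up 2.19% to 10.3% of an array, and 201 to 400 miRNAs were above background. The defining hepatocyte miRNAs were above background on all arrays (4 of 4). Of 17 markers of other cell types, the endothelial miR-126-3p was above background on 20 of 22 arrays, with a mean share of 0.0233% of the signal. The endothelial miR-126-5p was above it on none, and those of leukocytes, erythroid cells, stellate and mesenchymal cells and biliary epithelium (15) were above it on none. A drop in cell number and a drop of RNA per cell cannot be told apart in such bulk samples.

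The doses of the CsA arrays are not settled. The series also holds a table of processed values, and its columns could be rebuilt exactly from the array files, which shows which array each column holds. Only 6 of the 22 columns hold the array that carries the same name. All 6 belong to experiment 1, so the doses of its arrays are the same under either naming. The other 16 belong to experiments 2 and 3, where arrays are exchanged in pairs. Of the other 16, 8 hold a CsA array of the other dose and 8 a DMSO array of another replicate number, while time and experiment number are kept in all 22. Nothing in the sources used here says which naming is right. The comparisons of pooled CsA with DMSO are the same under either naming and come first, and doses are given under both. The pooled comparisons count any difference between doses as spread. This can widen their SE, so the lack of a call there does not exclude a change at a single dose. Tests used limma over the 290 miRNAs, with p-values adjusted by Benjamini-Hochberg, and a miRNA is called at an adjusted p under 0.05.

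After 24 h of CsA none of the 10 entries was called against DMSO, and none of the 290 miRNAs was (0%). At an unadjusted p under 0.05 there were 4 entries, and 18 of all 290. The largest differences were those of miR-5105 and miR-6243, higher on average with CsA, and of miR-5097 and miR-5100, lower on average.

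miR-5105 had scaled signals of 3.40, 14.1, 13.8, 14.2 and 2.62 in CsA cells at 24 h, against 3.25, 1.65, 2.77, 2.23 and 2.37 in DMSO cells. Of the CsA arrays, 3 lay far above all DMSO arrays, 1 lay just above the highest of them and 1 lay within their range. The log2 difference was 1.66 ± 0.66 (SE, adjusted p = 0.51, limma).

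miR-5100 had 2.84, 2.06, 4.03, 3.20 and 2.80 in CsA cells at 24 h, against 3.67, 7.83, 3.90, 15.4 and 8.58 in DMSO cells. The groups overlapped by a single CsA array, and the DMSO arrays spread more widely than the CsA arrays. The difference was -1.23 ± 0.36 (log2, adjusted p = 0.23, limma), the lowest adjusted p among the entries. miR-5097 differed by -1.34 ± 0.48 (adjusted p = 0.44, limma) and miR-6243 by 1.18 ± 0.51 (adjusted p = 0.69, limma). The other entries had differences of 0.38 (miR-1224-5p), 0.37 (miR-5109), 0.09 (miR-2137), 0.08 (miR-5126), -0.19 (miR-3963) and -0.44 (miR-6366). For miR-122-5p the difference was 0.10, with a 95% interval of -0.09 to 0.29.

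After 48 h of CsA again none of the 10 entries was called. Of all 290 miRNAs 3 were (1.03%). At an unadjusted p under 0.05 there were 6 entries, and 80 of all 290.

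miR-5105 had a lowest, median and highest scaled signal of 4.18, 15.8 and 43.9 in CsA cells at 48 h, against 2.46, 3.48 and 7.28 in DMSO cells. The CsA arrays did not form a single cluster: 3 lay at 25.8, 33.7 and 43.9, above all DMSO arrays, and 3 at 4.18, 4.20 and 5.78, within the DMSO range. The mean log2 difference was 1.73 ± 0.60 (adjusted p = 0.11, limma).

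miR-6243 split the same arrays. It had 18.7, 54.5 and 101.02 (lowest, median, highest) in CsA cells, against 13.6, 18.0 and 44.5 in DMSO cells, and a log2 difference of 1.16 ± 0.47 (adjusted p = 0.14, limma). The 3 arrays high in miR-5105 had 85.6, 96.5 and 101.02, and the other CsA arrays had at most 23.4. The highest DMSO value belonged to replicate 5, and the other 5 DMSO arrays had at most 21.4.

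miR-5109 had 49.6, 123 and 165 in CsA cells at 48 h, against 47.3, 55.4 and 127 in DMSO cells, where replicate 5 again gave the highest value and the next was 69.1. Its log2 difference was 0.70 ± 0.33 (adjusted p = 0.17, limma). miR-1224-5p differed by 0.68 ± 0.28 (adjusted p = 0.14, limma), with 11.4, 22.4 and 31.8 in CsA cells, against 8.88, 11.6 and 23.8 in DMSO cells.

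On the lower side, miR-5097 had 0.227, 0.416 and 0.925 in CsA cells at 48 h, against 0.543, 0.905 and 2.45 in DMSO cells. Its log2 difference was -1.18 ± 0.44 (adjusted p = 0.12, limma). miR-5100 had 1.79, 2.22 and 3.46, against 2.02, 4.29 and 7.16, and a difference of -0.77 ± 0.33 (adjusted p = 0.15, limma). miR-6366 had 27.6, 44.1 and 105, against 62.3, 72.2 and 160, and a difference of -0.74 ± 0.42 (adjusted p = 0.26, limma). In all 3 the groups overlapped.

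The other entries had small differences at 48 h, 0.16 for miR-5126, 0.09 for miR-2137 and -0.13 for miR-3963, with 95% intervals of -0.24 to 0.56, -0.50 to 0.69 and -0.71 to 0.45. Over the 10 entries 6 differences were above 0, with a median of 0.13, beside a median of 0.10 over all 290 miRNAs. miR-122-5p differed by 0.07 (-0.11 to 0.24).

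**Figure D4:**
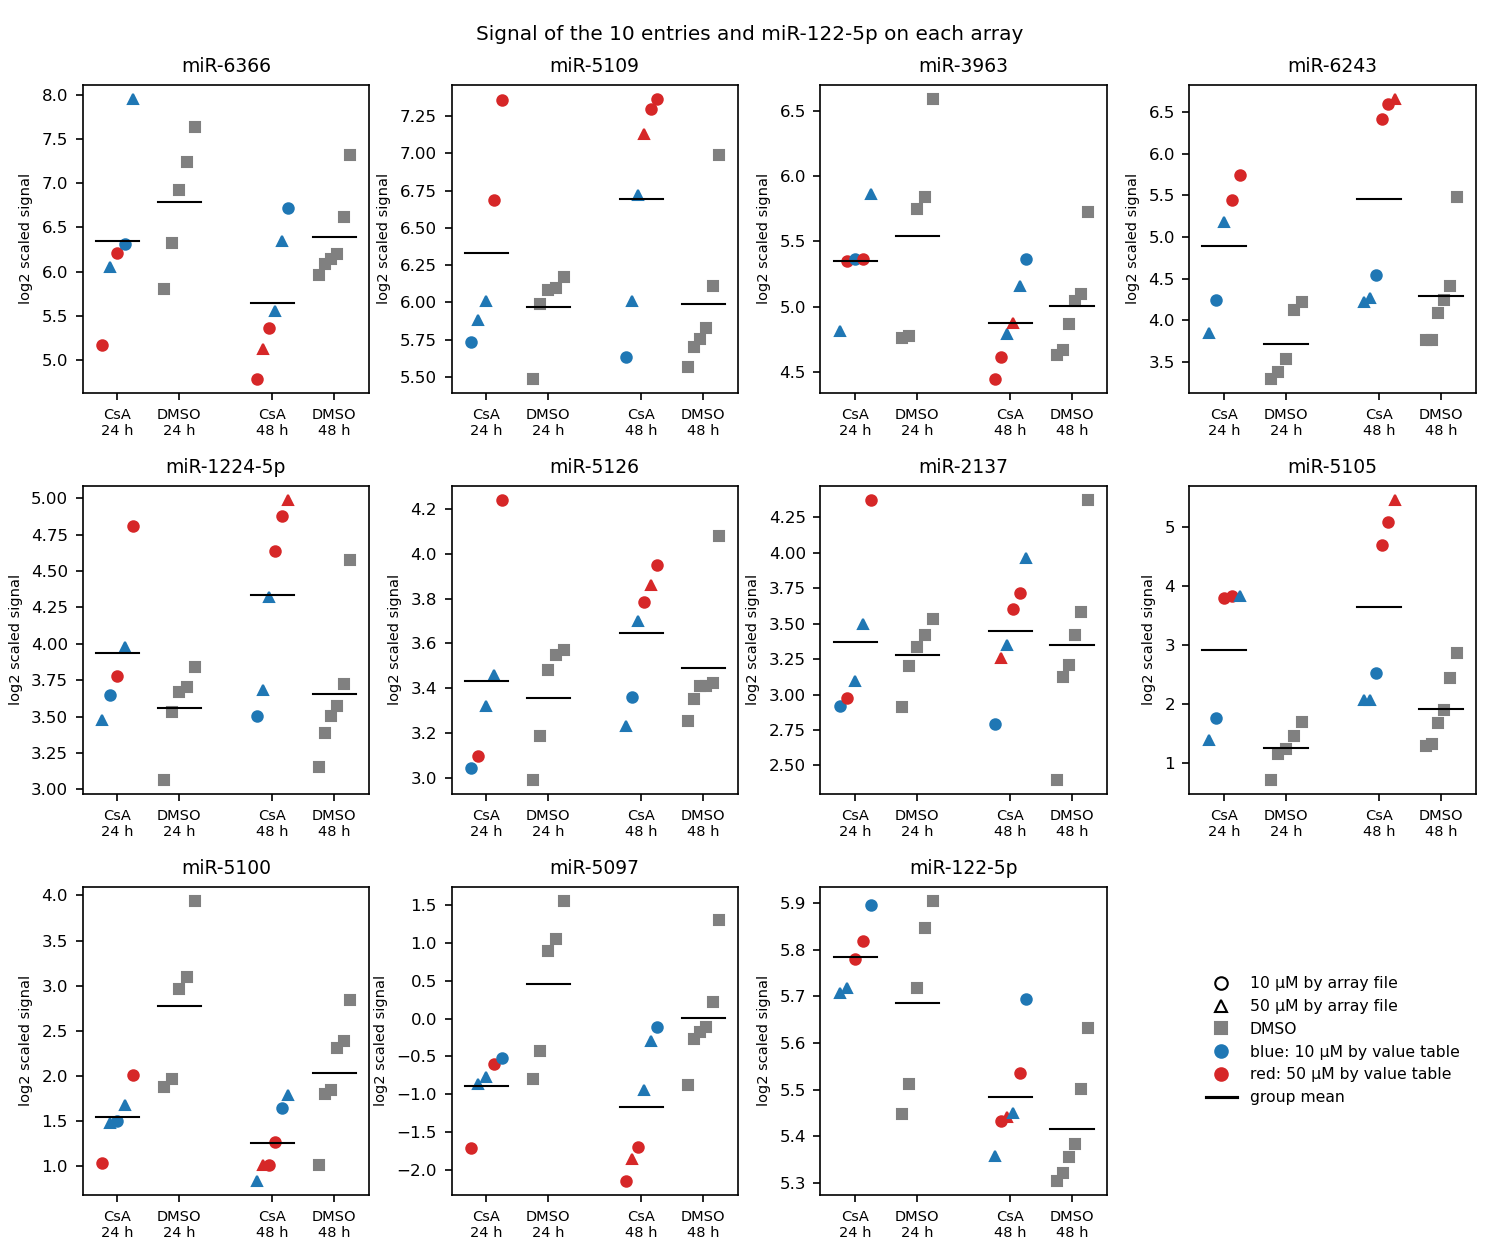
Each point is an array and gives the log2 scaled signal (y axis) of the entry named above the panel, in CsA and DMSO cells at 24 h and 48 h (x axis), with the group mean as a line. Shape gives the dose by the array files and colour the dose by the value table. In miR-5105, miR-6243, miR-5109 and miR-1224-5p the 3 red points at 48 h are the 3 highest CsA arrays, and their shapes differ.

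Single arrays decided the count at 48 h. Without DMSO replicate 5 there were 5 entries called, miR-5105, miR-6243, miR-5109 and miR-1224-5p higher and miR-5097 lower, and 58 of all 290. Without 10 µM replicate 1 (by the array files) there were 3, and without 50 µM replicate 2 there was 1, miR-5105. The counts over all 290 miRNAs in these last fits are not given here, so they do not set the entries apart. DMSO replicate 5 had 20.8 for miR-2137 and 16.9 for miR-5126, the highest of its group in both.

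The arrays lie on 3 slides that hold treatments unequally. At 48 h the difference of miR-5105 was 2.63 on slide 1 (4 CsA arrays, 1 DMSO array) and 0.47 on slide 3 (2 and 3 arrays), and that of miR-6243 was 1.89 and 0.07. Slide 2 holds DMSO arrays only at that time. At 24 h miR-5105 differed by 2.84, 1.00 and 2.12 on slides 1, 2 and 3, and miR-5100 by -1.36, -1.29 and -0.83. With slide as a block no entry was called at either time.

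DMSO cells at 48 h, set against DMSO cells at 24 h, had 0 entries called, and 0 of all 290 (0%), with 1 entry and 38 of 290 at an unadjusted p under 0.05. The entry was miR-5100, at -0.74 ± 0.34 (log2, adjusted p = 0.35, limma). The difference was 0.66 ± 0.63 for miR-5105 and 0.58 ± 0.49 for miR-6243. The other entries had differences between -0.54 (miR-3963) and 0.13 (miR-5126), with -0.44 for miR-5097, -0.40 for miR-6366, 0.03 for miR-5109, 0.07 for miR-2137 and 0.09 for miR-1224-5p. miR-122-5p differed by -0.27 ± 0.09 (adjusted p = 0.18, limma). The count over all miRNAs depended on the scaling: with each array scaled on miR-122-5p, 48 of them were called higher and 0 lower, with a median of 0.31, and still 0 of the 10 entries. The CsA difference at 48 h was not shown to differ from that at 24 h in any entry (interaction term, 0 of 10 called and 0 of 290, lowest adjusted p 0.80, limma, with 0 of 10 and 7 of 290 at an unadjusted p under 0.05). For miR-5105 the change in the CsA difference was 0.07, with an interval of -1.80 to 1.94 that leaves room for large changes either way.

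Under the dose names of the array files no entry was called at either dose or time. At 48 h miR-5105 had 5.78, 25.8 and 33.7 with 10 µM CsA and 43.9, 4.18 and 4.20 with 50 µM, against the DMSO values above. Both dose groups thus held low and high arrays. The difference from DMSO was 2.18 ± 0.75 at 10 µM (adjusted p = 0.09, limma) and 1.28 ± 0.75 at 50 µM (adjusted p = 0.57, limma), with 6.55% and 0.345% of all 290 miRNAs called. Between 50 and 10 µM the difference was -0.90, with an interval of -2.73 to 0.92 and 0 of 290 called. At 24 h 0 of 290 miRNAs were called at 10 µM, at 50 µM and between the doses, with 4, 1 and 0 entries at an unadjusted p under 0.05, and 21, 7 and 3 of all 290. Between the doses at 48 h these counts were 0 entries and 16 of 290, for 50 µM against DMSO 0 entries and 18 of 290, and for 10 µM against DMSO 3 entries and 74 of 290, the highest of these counts.

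Under the names of the value table the dose groups separated at 48 h. With 50 µM CsA 4 entries were higher than with DMSO, miR-5105, miR-6243, miR-5109 and miR-1224-5p, and 2 were lower, miR-5097 and miR-6366. These 6 stand beside 37.9% of all 290 miRNAs called, 27.6% higher and 10.3% lower, so that calls were common among all miRNAs. With 10 µM none of the 10 was called (1.03% of all 290), and 0 entries and 15 of 290 had an unadjusted p under 0.05.

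miR-5105 had 43.9, 25.8 and 33.7 with 50 µM CsA at 48 h and 5.78, 4.18 and 4.20 with 10 µM under these names. The 50 µM arrays lay above all 10 µM and DMSO arrays, and the 10 µM arrays lay within the DMSO range. The difference from DMSO was 3.15 ± 0.43 at 50 µM (adjusted p = 2.01e-05, limma), 8.89-fold, and 0.30 ± 0.43 at 10 µM. miR-6243 was higher by 2.26 ± 0.33 at 50 µM (adjusted p = 5.13e-05, limma) and differed by 0.05 ± 0.33 at 10 µM.

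miR-5109 had 140, 157 and 165 with 50 µM CsA at 48 h and 49.6, 64.5 and 106 with 10 µM, and exceeded DMSO at 50 µM by 1.27 ± 0.27 (adjusted p = 0.0014, limma). miR-1224-5p had 31.8, 24.9 and 29.4 with 50 µM and 11.4, 12.8 and 19.9 with 10 µM, and was higher than DMSO at 50 µM by 1.18 ± 0.28 (adjusted p = 0.0028, limma). In both every 50 µM array lay above every DMSO array, replicate 5 included.

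miR-5097 had 0.276, 0.227 and 0.309 with 50 µM CsA at 48 h and 0.925, 0.523 and 0.817 with 10 µM, and fell by 1.91 ± 0.48 (log2) against DMSO at 50 µM (adjusted p = 0.0040, limma). miR-6366 had 34.96, 27.6 and 41.2 with 50 µM and 105, 47.0 and 81.5 with 10 µM, and fell by 1.30 ± 0.45 against DMSO (adjusted p = 0.028, limma). All 50 µM arrays lay below all DMSO arrays in both. The call of miR-6366 was lost under 6 alternatives, among them the scanner's total gene signal (adjusted p = 0.0687, limma) and leaving out any of the 3 CsA arrays. In this comparison 6 of the 10 entries had groups that did not overlap, beside 26.6% of all 290.

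The 50 µM and 10 µM arrays themselves differed at 48 h under the value-table names in 4 entries, all higher at 50 µM, beside 29% of all 290 miRNAs called and 21.4% called higher. These are 62 higher and 22 lower, with a median of 0.10, while quantile normalisation gave 42 higher and 52 lower, with a median of -0.10. The 4 entries were miR-5105 (2.85 ± 0.50), miR-6243 (2.21 ± 0.39), miR-5109 (1.14 ± 0.32) and miR-1224-5p (1.00 ± 0.32). The calls of miR-5109 and miR-1224-5p were lost after quantile normalisation (adjusted p = 0.43 and 0.20, limma), with total gene signal, without the filter and without some single arrays, among them 10 µM replicate 1. miR-2137 differed by 0.16 between the doses, with an interval of -0.70 to 1.011, and miR-122-5p by -0.03 (-0.29 to 0.23). All 3 arrays named 50 µM lie on slide 1, with 1 of the 3 named 10 µM and 1 of the 6 DMSO arrays. Within that slide miR-5105 was 3.01 above the 10 µM array and 3.39 above the DMSO array, and with slide as a block its difference from DMSO was 3.04.

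At 24 h the value-table names gave 2 entries higher with 50 µM CsA than with DMSO, beside 3.79% of all 290 called, all of them higher. miR-5105 had 14.1 and 13.8 with 50 µM and exceeded DMSO by 2.55 ± 0.51 (adjusted p = 0.0074, limma). miR-6243 had 43.6 and 53.4 with 50 µM, against 18.7, 9.84, 17.5, 10.4 and 11.6 with DMSO, and exceeded DMSO by 1.88 ± 0.40 (adjusted p = 0.0083, limma). Both calls were lost without either 50 µM array, while the differences were 2.53 and 2.56 for miR-5105 and 2.03 and 1.73 for miR-6243. The remaining 50 µM array was then alone and was taken to vary like the other groups. The entries not called had differences from DMSO of 1.05 (miR-5109), 0.73 (miR-1224-5p), 0.39 (miR-2137), 0.31 (miR-5126), -0.19 (miR-3963), -1.10 (miR-6366), -1.24 (miR-5100) and -1.61 (miR-5097). The second of those arrays stands apart in its negative controls, with a mean signal of 215 over them and a median of 1.34. With 10 µM no entry and none of all 290 was called (0%), 3 entries and 16 of 290 had an unadjusted p under 0.05, and miR-5105 had 3.40, 14.2 and 2.62. Between the doses at 24 h no entry was called, with 0.69% of all 290.

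**Figure D5:**
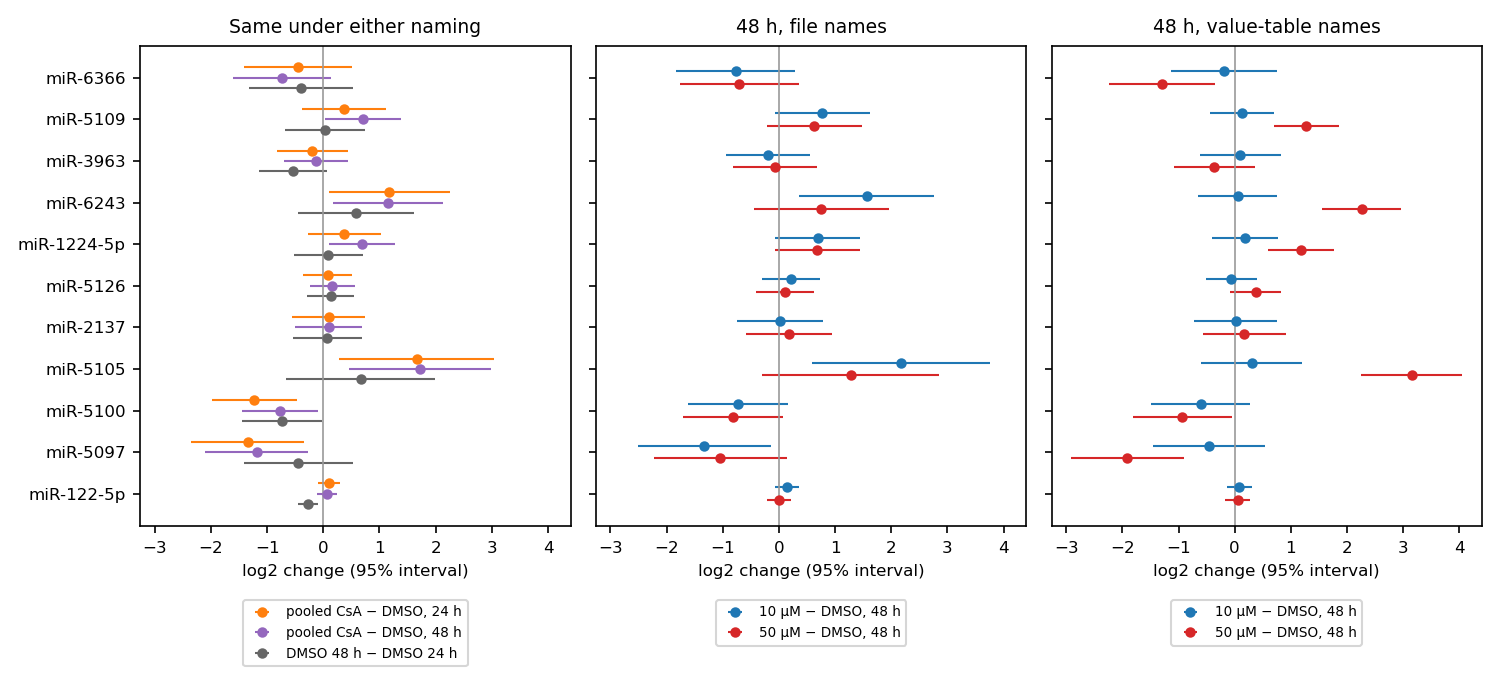
Points give log2 changes with 95% intervals (x axis) for the 10 entries and miR-122-5p (y axis). The left panel holds the comparisons that do not depend on the naming, and the other two hold 10 µM and 50 µM CsA against DMSO at 48 h under each naming. miR-5105 at 50 µM is at 1.28 under the array files' names and at 3.15 under the value table's.

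The naming also set how alike arrays of a dose were. Within CsA groups formed by the value table's names, the SD of miR-5105 was 0.74 and that of miR-6243 0.39, against 1.57 and 1.11 within groups formed by the array files' names. Over all 290 miRNAs the median SD was 0.24 and 0.38. miR-122-5p ran the other way, 0.11 and 0.08.

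The direction of the whole table at 48 h depended on the scaling. For 50 µM CsA against DMSO under the value table's names, 80 miRNAs were called higher and 30 lower, with a median difference of 0.13 over all 290. After quantile normalisation the calls were 64 and 75, with a median of -0.08, and with the 75th percentile over all probes 41 and 71, with a median of -0.13. The 6 entries called kept their direction and call under both, except miR-1224-5p with the percentile over all probes (adjusted p = 0.05855, limma).

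The 10 entries had a median difference of 0.27 in that comparison, with 4 called higher and 2 lower. Of 73 other tested entries numbered 2100 or above, 35 were called higher and 0 lower, with a median of 0.67. Of 14 miRNAs known to be enriched in hepatocytes, 0 were called higher and 3 lower, with a median of -0.30. Both lists were drawn up with earlier results of these data known.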

How the data were processed

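Small RNA of 22 cultures was measured on single-colour Agilent arrays on 3 slides, and the design text names 24, of which the other 2 were not analysed here. The spot files hold processed signal intensities, which the scanner software, Feature Extraction 10.7.3.1, had corrected for background per the file headers. A second source is a table of log2 intensities deposited by the authors, with R 2.15.2 named in the submitters' processing notes. Its columns were rebuilt from the scanner's total gene signal by a minimum of 0.5, quantile normalisation and log2, and it holds 0 columns of other samples. RNA was extracted with DNase treatment per the labels' protocols. The labels name biotin as the label although the kit named is Agilent's.

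From the 49880 spots of 3105 probes, spots marked as outliers and controls were left out, and the rest averaged per probe. Each array was divided by the 75th percentile of 281 probes, those well above background throughout (188 to 605), a floor of 0.0471 was set and log2 taken. The brightest probe stood for each miRNA, and the 290 above background on at least 3 arrays were tested with limma 3.58.1 in R 4.3.3, in a fit of 4 groups (CsA pooled, by time) and in fits of 6 groups for the doses, after the test was tested on simulated data. P-values were adjusted by Benjamini-Hochberg. The number of arrays limits the precision, and p-values measure only the spread between these arrays, which the labels call biological replicates.

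The naming rule took all 10 entries, miR-122-5p, the other miRNAs among the brightest by share, and the 3 tested miRNAs nearest to each entry by correlation. Not every one of these is printed for every dose comparison or as a neighbour: the entries with the larger differences and the nearest miRNAs are given. The entries, lists and tests were chosen with earlier results of these data known. The experiment numbers were not treated as pairs in the main fits. The correlation of CsA and DMSO deviations within a number was 0.05 to 0.39 at 24 h and 0.40 to 0.77 at 48 h. At 48 h arrays of the same number thus varied partly alike, and calls with the number as a block are given in the last section. Alternatives covered scaling, background, summary, filter, slide, experiment number, the value table and leaving out each array.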

Additional observations from a re-analysis of the deposited data

Results flagged for a closer look

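Of 22 checks on the log2 scale, of the highest and lowest array of each entry and of miR-122-5p within the DMSO groups of 5 and 6 arrays, 2 stood apart by Dixon's criterion, which chance meets in about 1 of 20. miR-5109 in DMSO 24 h replicate 3 had a scaled signal of 44.8, the lowest of its group, with the next at 63.6, a gap of 0.735 of the group's range where the limit for 5 arrays is 0.71. miR-5126 in DMSO 48 h replicate 5 had 16.9, the highest of its group, with the next at 10.74, a gap of 0.793 of the range where the limit for 6 arrays is 0.625. Neither was weighed further.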

How the results depend on the processing

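The numbers of entries called moved as follows, with alternatives on the value table's names chosen after seeing the data. For pooled CsA against DMSO at 48 h it was 0, but 1 after quantile normalisation and 0 to 5 with arrays left out in turn. Over all miRNAs quantile normalisation gave 12 higher and 7 lower there. Under the array files' names, 10 µM at 48 h had 0, and 0 to 5 with arrays left out. For 50 µM against DMSO the value table's own values and its names each gave 2 at 24 h and 6 at 48 h, against 0 under the files' names. Over all miRNAs the names gave 11 higher and 0 lower at 24 h, and 80 and 30 at 48 h. The own values gave 8 and 0 at 24 h, and 42 and 62 at 48 h. For 50 against 10 µM at 48 h the own values and the names gave 3 and 4 entries, against 0. Over all miRNAs the own values gave 34 higher and 35 lower there, and the names 62 and 22. In this last comparison signs turned: with the value table's own values miR-5097 was at -1.71, miR-5105 at 2.62 and miR-6243 at 1.99, and with its names miR-1224-5p was at 1.00, miR-5105 at 2.85, miR-5109 at 1.14 and miR-6243 at 2.21. The cause was not tested. Counts over all miRNAs with arrays left out are not given here or below, so those ranges do not set the entries apart.

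Under the value table's names, 50 µM at 24 h had 2, but 0 without the filter on dim probes and 0 to 3 with arrays left out. For 50 against 10 µM it was 0 to 1 at 24 h and 2 to 4 at 48 h with arrays left out, and at 48 h it was 2 with total gene signal or without the filter. With the experiment number as a replicate block, 0 were called in the pooled comparisons and 3, 7 and 5 under the value table's names (50 µM at 24 h, 50 µM at 48 h, 50 against 10 µM at 48 h). Over all 290 miRNAs the same replicate block gave 18 higher and 7 lower for pooled CsA at 48 h, against 1 and 2 without it. For DMSO at 48 h against 24 h it gave 8 higher and 2 lower, against 0 and 0. Under the value table's names it gave 17 and 0 for 50 µM at 24 h, against 11 and 0. For 50 µM at 48 h it gave 97 and 58, against 80 and 30. For 50 against 10 µM at 48 h it gave 72 and 46, against 62 and 22. Without the filter, over all miRNAs, 50 µM at 24 h had 2 higher and 0 lower. There 50 against 10 µM at 48 h had 43 and 7, and with total gene signal 28 and 4. Signs changed in 359 of 3207 alternative values. In 7 of these the alternative value was called, as for 50 against 10 µM at 48 h above. No value called in its main fit changed sign. Signal over background did not limit the entries, all above background on all arrays.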
